A study of Mus musculus with 4 samples.

Results

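The mitochondrial ribosomal protein genes are the nuclear genes whose symbols begin with *Mrpl* or *Mrps* and a number. Of the 56748 gene IDs in the count files, 78 were protein-coding genes with such a symbol, 49 named for the large subunit (*Mrpl*) and 29 for the small subunit (*Mrps*). They were compared in C2C12 myoblasts, an established mouse muscle precursor line of wild-type genotype, that carried either a scrambled shRNA or a cocktail of 3 shRNAs against *Hnrnpl*, the gene of an RNA-binding protein that regulates splicing. Each group had 2 libraries of nanopore direct RNA reads, in which the RNA itself is read without amplification. In both groups the shRNA plasmid carried eGFP as a marker, by which transfected clones were picked before puromycin selection. Both libraries of a group were passages of 1 selected stable line. The labels number them 1 and 2 and name no batch. This number is used as the batch below, with 1 library of each group in batch 1 and 1 in batch 2. All p-values below therefore measure the spread between these passages, and the knockdown and the selection of a line cannot be told apart.

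Mitochondria make the few proteins that their own genome encodes on ribosomes of their own. The ribosomal RNAs come from mitochondrial DNA, but all proteins of both subunits are encoded in the nucleus, made in the cytosol and imported. Some have a counterpart in the bacterial ribosome and others are found only in mitochondria, and muscle cells depend on this machinery because it makes core subunits of the respiratory chain.

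Reads assigned to genes numbered 1387523 for scrambled 1, 1676911 for scrambled 2, 1374637 for knockdown 1 and 1229424 for knockdown 2, so that 3 reads, the limit taken for a count of 0, stand for 1.79 to 2.44 CPM (reads per 1000000 counted reads, and counting error only). *Hnrnpl* had 358 and 656 reads in the scrambled and 242 and 258 in the knockdown cells (log2 fold change −0.78 ± 0.18 SE, adjusted p = 0.011, edgeR's quasi-likelihood test). Its adjusted p was 0.057 in the DESeq2 parametric fit, and with 1 library left out its fold change ran from −1.03 to −0.48 and lost the call without scrambled 2 (−0.48, adjusted p = 0.19 in edgeR) or knockdown 1 (−0.62, 0.15). Of 8 myoblast markers, 6 were tested and 4 were called lower in edgeR, beside 3.44% of all genes tested. Among them were *Des* (desmin, −0.56) and *Cdh15* (M-cadherin, −2.55), while *Myod1* had 0 or 1 read in each library. The other tested markers were not called, *Myf5* at −0.16 (adjusted p = 0.62 in edgeR) and *Vcam1*, above 0, at 0.29 (adjusted p = 0.71). *Des* was no longer called with the batch as a replicate block (adjusted p = 0.053 in edgeR) or in the DESeq2 parametric fit (0.21), and *Cdh15* was called in both. *Ncam1* was called with the block but not in the DESeq2 parametric fit (adjusted p = 0.077). That fit called 2 of the markers, *Cdh15* and *Chrna1*. The summed level of the 8 markers was 707 and 846 CPM in the scrambled and 476 and 395 in the knockdown cells. Their part in the results below was not tested, and in bulk RNA fewer cells of a type and less RNA per cell cannot be told apart. Of 7 myotube markers 5 had no reads in any library, and the macrophage, adipocyte and endothelial marker lists summed to at most 3.25, 0.60 and 0.81 CPM, with *Ptprc*, *Plin1* and *Pecam1* at 0 in every library.

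The mitochondrial ribosomal protein genes had a median fold change close to that of all genes, in the large as in the small subunit, and single members lay on either side of it. Of the 78 genes, 72 had enough reads to be tested, 46 of the large and 26 of the small subunit. The median log2 fold change was 0.003 for the large and 0.05 for the small subunit, beside −0.0006 over all 8670 genes tested. Values ran from −0.56 in *Mrpl27* to 0.71 in *Mrps6*, so no estimate for a tested member reached 2-fold. With 1 library left out *Mrpl27* ran to −0.81 and *Mrps6* to 1.00, so a change of that size is not excluded. The SD of the members was 0.30. It compares with 0.53 for all genes tested, and with 0.42 for the 4501 genes that had a mean of at least 50 normalized counts. Of the members 59 reached that mean and also had an SD of 0.30.

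At an adjusted p under 0.05, 5 of 72 members were called (6.94%), beside 5.95% of all genes tested. *Mrpl52*, *Mrpl11* and *Mrpl21* of the large subunit fell and *Mrps17* and *Mrps6* of the small subunit rose. The 3 lower calls stand beside a background of 3.44% and the 2 higher calls beside 2.51%. An unadjusted p under 0.05 was reached by 17 members (23.6%), beside 21.8% of all genes. In 41 members the groups had no overlap in normalized counts (56.9%, background 52.4%), of which 19 were higher in the knockdown (background 26.4%) and 22 lower (background 26.0%). These shares lie near those of all genes. With 2 libraries against 2, an exact permutation test of a single gene cannot go below p = 0.333.

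**Figure D1:**
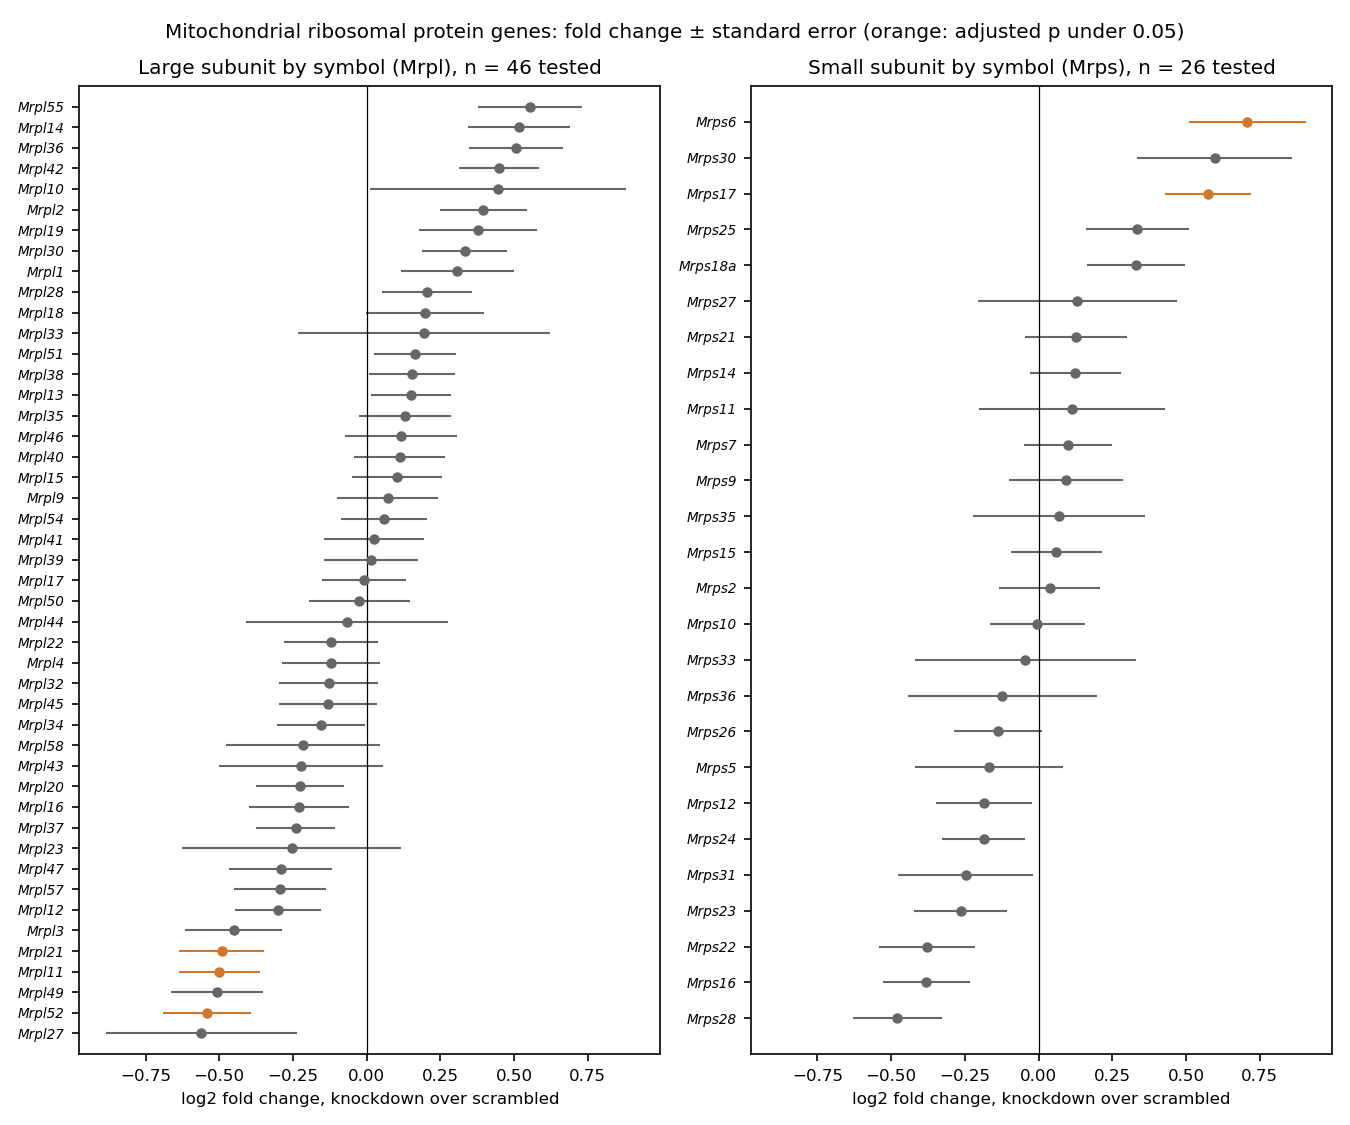
Log2 fold change of knockdown over scrambled (horizontal axis) with its standard error for the 46 large subunit and 26 small subunit genes tested, in order of the fold change. The 5 genes with an adjusted p under 0.05 are orange, and both subunits spread on either side of 0.

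The members together took 1.05% of all counted reads for scrambled 1, 0.996% for scrambled 2, 0.983% for knockdown 1 and 1.05% for knockdown 2, so the groups overlapped. Within batch 1 the median member was lower in the knockdown by a log2 difference of −0.11, and within batch 2 it was higher by 0.11, where the median over all genes was 0.008 and 0.0003 and over the genes with a mean of at least 50 normalized counts −0.02 and 0.03. The split was seen in both subunits. For the large subunit the medians were −0.12 in batch 1 and 0.10 in batch 2, and for the small subunit −0.10 and 0.15. Large subunit genes summed to 7701 and 7229 CPM in the scrambled and 7125 and 7534 in the knockdown cells. Small subunit genes summed to 2770 and 2732 in the scrambled and 2708 and 2928 in the knockdown cells. The ratio of large to small was 2.78 and 2.65 in the scrambled and 2.63 and 2.57 in the knockdown cells. With genes placed by symbol, the ratio was lower in the knockdown library of each batch, and both knockdown libraries were below both scrambled libraries. The gap was narrow, at 2.65 in scrambled 2 and 2.63 in knockdown 1. The counting error of the ratios was not estimated and their difference was not tested.

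Gene symbols do not always give the true place of the protein. *Mrps30* and *Mrps18a* encode proteins that sit in the large subunit, and *Mrps36* encodes a component of the oxoglutarate dehydrogenase complex. With the first 2 moved and *Mrps36* left out, the medians were 0.02 for the large and 0.04 for the small subunit. Large subunit genes then summed to 7841 and 7393 CPM in the scrambled and 7307 and 7755 in the knockdown cells. Small subunit genes summed to 2614 and 2550 in the scrambled and 2508 and 2693 in the knockdown cells. The ratio of large to small was still lower in the knockdown library of each batch, though only narrowly in batch 2, and this too was not tested. That of knockdown 1 was above that of scrambled 2, so the groups overlapped. The median was 0.07 over the 44 tested members with a bacterial counterpart, of which 4 were called, and −0.03 over the 26 found only in mitochondria, of which 1 was called. These shares of 9.09% and 3.85% stand on either side of the 5.95% of all genes, and the difference between these classes was not tested.

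*Mrpl52* encodes a protein of the large subunit that is found only in mitochondria. It lies on the forward strand of chr14:54664360-54668593 (GRCm39) and had 742 and 708 normalized counts in the scrambled and 429 and 568 in the knockdown cells. Both knockdown libraries were below both scrambled libraries, with means of 725 ± 23.9 and 499 ± 98.8 (SD, n = 2). The log2 fold change was −0.54 ± 0.15 (SE, adjusted p = 0.037, edgeR's quasi-likelihood test with Benjamini-Hochberg adjustment). The log2 difference was −0.79 in batch 1 and −0.32 in batch 2, and with the batch as a replicate block the adjusted p was 0.052.

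*Mrpl11*, on chr19:5012163-5017100 (forward strand), encodes the protein at the base of the stalk that contacts elongation factors. It had 519 and 491 normalized counts in the scrambled and 369 and 344 in the knockdown cells, a log2 fold change of −0.50 ± 0.14 (adjusted p = 0.037 in edgeR, 0.068 with the replicate block). The groups did not overlap, and the log2 difference was −0.49 in batch 1 and −0.51 in batch 2. *Mrpl21*, on chr19:3332776-3351862 (forward strand), is the counterpart of bacterial L21. It had 416 and 388 normalized counts in the scrambled and 267 and 305 in the knockdown cells, with a log2 fold change of −0.49 ± 0.14. Its adjusted p of 0.0497 in edgeR was just inside the threshold, and it was 0.084 with the replicate block.

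*Mrps17*, on chr5:129792545-129799621 (forward strand), encodes the counterpart of bacterial S17, a protein that binds the small ribosomal RNA. It had 203 and 191 normalized counts in the scrambled and 294 and 292 in the knockdown cells, so the groups were well apart. The log2 fold change was 0.57 ± 0.15 (adjusted p = 0.025 in edgeR, 0.042 with the replicate block), and it was 0.53 in batch 1 and 0.61 in batch 2. *Mrps6*, on chr16:91854965-91909592 (forward strand), encodes the counterpart of bacterial S6. It had 85.9 and 58.1 normalized counts in the scrambled and 116 and 117 in the knockdown cells. The scrambled libraries differed more than the knockdown libraries, and the log2 fold change was 0.71 ± 0.20 (adjusted p = 0.039 in edgeR, 0.033 with the replicate block), with 0.42 in batch 1 and 1.00 in batch 2. The annotation has 52.4% of the exon bases of *Mrps6* shared on the same strand with *Slc5a3* and a predicted gene, so the split of reads between them is uncertain. *Slc5a3*, the inositol transporter gene, had 65 and 68 reads in the scrambled and 60 and 55 in the knockdown cells (log2 fold change −0.01).

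The calls changed with the processing. With the replicate block, 2 of 72 members were called, *Mrps17* and *Mrps6* (background 5.81%). DESeq2's Wald test under a local fit called *Mrpl11* and *Mrpl52* (background 2.79%), and under the parametric fit it called no member (background 1.31%), while 9 members had an unadjusted p under 0.05 in that fit. Under the block the fold changes of the 3 lost genes hardly moved, at −0.55 for *Mrpl52*, −0.50 for *Mrpl11* and −0.49 for *Mrpl21*. Leaving out 1 library left at most 1 call, in fits where 1 group is a single library that is assumed to vary like the other group. It was *Mrps6* without scrambled 1 (background 4.96%), none without scrambled 2 (background 4.09%), none without knockdown 1 (background 2.17%) and *Mrpl52* without knockdown 2 (background 4.52%), with 16 members at an unadjusted p under 0.05 in each of the fits without a call. *Mrpl52* went to −0.35 without knockdown 1, and *Mrps6* to 0.43 without scrambled 2, while *Mrps17* stayed between 0.52 and 0.62, *Mrpl11* between −0.55 and −0.45 and *Mrpl21* between −0.59 and −0.40 in all 4 of these fits. Other settings gave 4 to 7 calls. *Mrpl21* was lost with RLE factors (4 calls, background 5.65%) and with upper quartile factors (5 calls, background 5.69%). The other 4 were called with both. All 5 were called with the mitochondrially encoded genes and *Rn18s* left out (background 5.80%). All 5 and *Mrpl49* were called without a filter on low counts (background 4.42%), and all 5, *Mrpl42* and *Mrpl49* with a minimum of 10 counts in every library (background 6.52%) and in the robust fit (background 6.76%). All 5 kept their direction in each of the 14 alternatives tried.

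**Figure D2:**
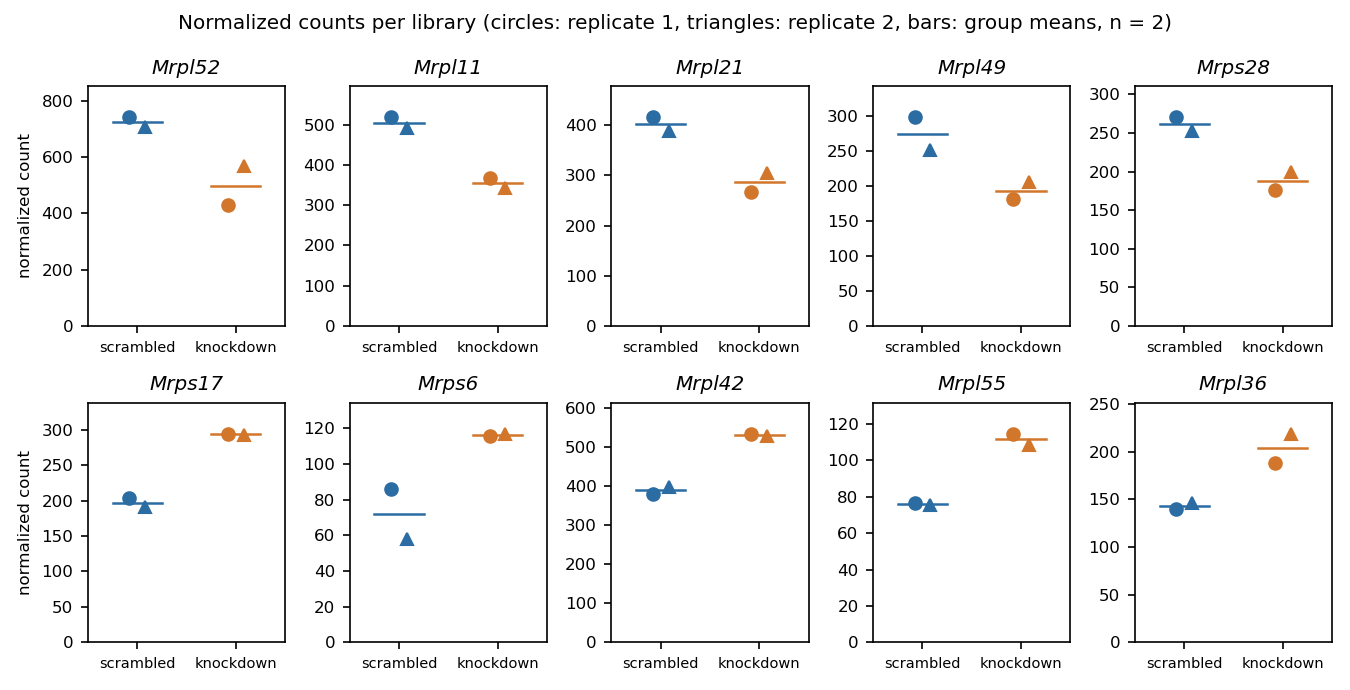
Normalized counts in each library for 10 members, the 5 called genes and 5 others with large fold changes, with circles for replicate 1, triangles for replicate 2 and bars for the mean of 2. The groups do not overlap in any of these genes, for example 203 and 191 against 294 and 292 in *Mrps17*. The genes were picked by these same values, and 52.4% of all genes tested have no overlap.

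At an adjusted p under 0.1 there were 11 members (background 10.5%), and the 6 that were not called were these. *Mrpl42*, a large subunit protein found only in mitochondria, had 379 and 398 normalized counts in the scrambled and 533 and 528 in the knockdown cells (0.45 ± 0.14, adjusted p = 0.056 in edgeR, and 0.044 with upper quartile factors or the robust fit). *Mrpl49*, also of the large subunit, had 298 and 251 in the scrambled and 180 and 205 in the knockdown cells (−0.51 ± 0.16, adjusted p = 0.058 in edgeR, and 0.046 with the robust fit). *Mrpl36*, the counterpart of the small zinc-binding protein L36, had 139 and 146 in the scrambled and 188 and 219 in the knockdown cells (0.51 ± 0.16, adjusted p = 0.065 in edgeR). The groups did not overlap in these 3 genes. *Mrps28* of the small subunit had 270 and 253 in the scrambled and 176 and 199 in the knockdown cells (−0.48 ± 0.15, adjusted p = 0.066 in edgeR). *Mrpl55* of the large subunit had 76.5 and 75.8 in the scrambled and 115 and 109 in the knockdown cells (0.55 ± 0.18, adjusted p = 0.068 in edgeR). *Mrpl14*, at the face between the subunits, had 107 and 89.2 in the scrambled and 147 and 132 in the knockdown cells (0.52 ± 0.17, adjusted p = 0.082 in edgeR). The groups were apart in these genes too, as they were in 52.4% of all genes tested. Further members at the ends of the range had an adjusted p over 0.1. *Mrps22*, *Mrps23* and *Mrps31* of the small subunit had log2 fold changes of −0.38, −0.26 and −0.25, *Mrps25* had 0.33, and *Mrpl19* of the large subunit had 0.38. With 1 library left out *Mrps25* ran from 0.12 to 0.53, *Mrpl19* from 0.14 to 0.62 and *Mrps31* from −0.36 to −0.13.

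Proteins that lie near each other in the particle had values of the same sign in some places and of both signs in others. At the exit of the peptide tunnel all 4 tested members were below 0, from −0.29 to −0.12, and none was called. The groups overlapped in 3 of them, and with 1 library left out *Mrpl45* ran from −0.27 to 0.006, *Mrpl22* from −0.24 to −0.006 and *Mrpl23*, which has a pseudogene of identical sequence, from −0.52 to −0.007. *Mrpl47*, the lowest at −0.29, ran from −0.48 to −0.11 in the same fits. Its log2 difference was −0.56 in batch 1 and −0.01 in batch 2. Around the peptidyl transferase centre 4 of 5 were below 0, with *Mrpl3* at −0.45 and *Mrpl2* above 0 at 0.40, neither past the threshold (adjusted p = 0.11 and 0.12 in edgeR). In *Mrpl4*, at −0.12, the groups overlapped, and it ran from −0.32 to 0.06 with 1 library left out. All 5 had the sign of the median of the other genes on their chromosome. With the chromosome medians taken off, as described below, the median of the 5 went from −0.23 to −0.002. At the stalk 2 of 4 were below 0. *Mrpl12*, the stalk protein itself, had −0.30 (−0.46 to −0.15 with 1 library left out) beside the −0.50 of *Mrpl11*, while *Mrpl54* had 0.06 and *Mrpl10*, which holds the stalk proteins, had 0.45 (0.10 to 0.69 with 1 library left out) with a mean of only 11.6 normalized counts. On the small subunit, *Mrps12* and *Mrps5* of the decoding side had −0.19 and −0.17 and *Mrps2* had 0.04, and none of these passed. Leaving out 1 library moved *Mrps12* to between −0.33 and −0.05 and *Mrps2* to between 0.001 and 0.07. In *Mrps35* the knockdown libraries lay on either side of the scrambled libraries, with 66.0 and 74.9 normalized counts in the scrambled and 41.9 and 110 in the knockdown cells, so its fold change of 0.07 had an SE of 0.29. *Mrps21* showed the same in smaller measure, with 335 and 314 in the scrambled and 280 and 432 in the knockdown cells.

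The chromosome on which a member lies went with its direction. The median log2 fold change of the other genes tested differed between chromosomes, from −0.37 on chromosome 9 and −0.36 on chromosome 14 to 0.28 on chromosome 6 and 0.30 on chromosome 16. All 11 tested members on the 3 chromosomes with a median under −0.2 (9, 14 and 19) had values below 0, with a median of −0.38, and the 3 lower calls lie there. Of the other genes 84.3% on chromosome 9, 87.8% on chromosome 14 and 74.1% on chromosome 19 were below 0 as well. On the 7 chromosomes with a median over 0.15, 25 of 30 members had values above 0, with a median of 0.18, and the 2 higher calls lie there. On the other 7 chromosomes 19 of 31 members were below 0. The limits of −0.2 and 0.15 were set after the values were seen. The genomic copies of each chromosome in the stable lines were not analysed here. Across the 72 members on 17 chromosomes the Pearson correlation of a member's value with the median of its chromosome was 0.65 and the Spearman correlation 0.64, a description across genes that share the same 4 libraries. Over the 8590 other genes the Pearson correlation with the chromosome median was 0.37. The sign was the same in 55 of 72 members (76.4%), in 69.1% of the 8590 other genes and in 72.9% of the 4441 others with a mean of at least 50 normalized counts.

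**Figure D3:**
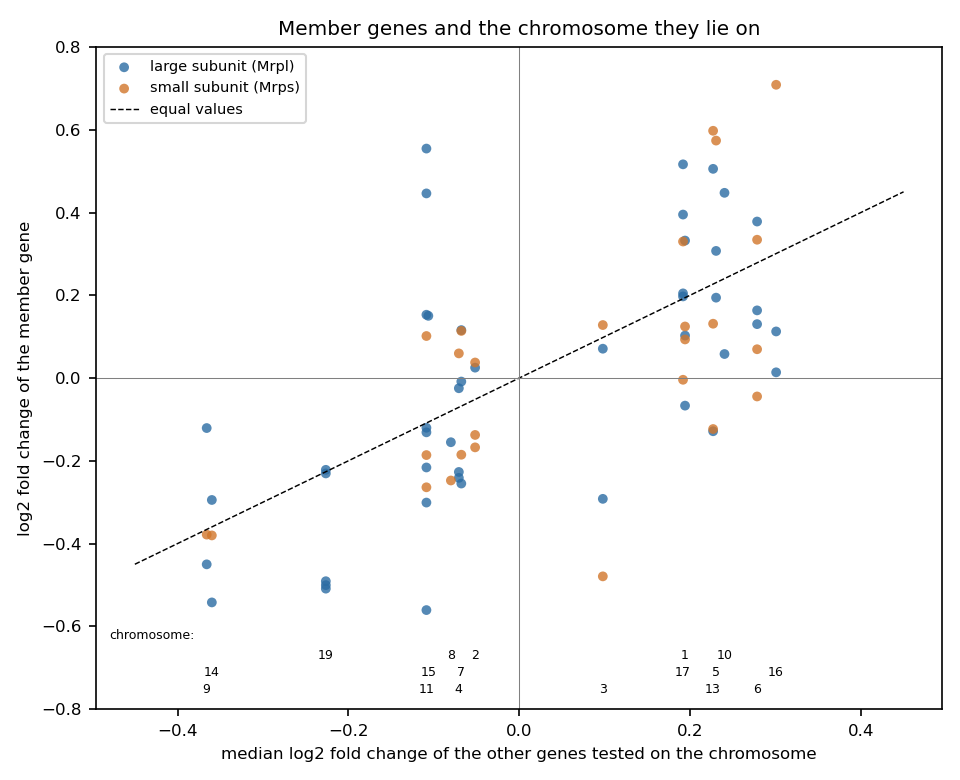
Log2 fold change of each tested member (vertical axis) against the median log2 fold change of the other genes on its chromosome (horizontal axis), with chromosome numbers along the bottom. All 11 members on chromosomes 9, 14 and 19 lie below 0, and 25 of the 30 on the chromosomes at the right lie above it.

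The chromosome medians had the same sign in both batches on all 17 chromosomes. Other genes of chromosome 14 had a median of −0.40 in batch 1 and −0.38 in batch 2, and those of chromosome 16 had 0.31 in both. When the chromosome medians were taken off before the test, the SD of the members fell from 0.30 to 0.23 and 17 members changed sign. None of the 5 calls was kept. *Mrpl52* went to −0.18 (adjusted p = 0.66 in edgeR), *Mrpl11* to −0.27 (0.38), *Mrpl21* to −0.26 (0.43), *Mrps17* to 0.34 (0.27) and *Mrps6* to 0.41 (0.34). In their place *Mrpl55* at 0.66 (adjusted p = 0.042) and *Mrps28* at −0.58 (adjusted p = 0.039) were called, 2 of 72 beside a background of 3.51%. Both go against their chromosome, where the other genes had a median of −0.11 on chromosome 11 and 0.10 on chromosome 3. *Mrpl55* (forward strand, chr11:59093303-59098353) and *Mrps28* (reverse strand, chr3:8865093-8988978) are the counterparts of bacterial L31 and S1.

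Levels differed far more between members than between groups. A direct RNA read stands for about 1 molecule whatever its length, so a level per kilobase places short genes higher than their reads do. By reads *Mrpl12* was highest, with a mean of 745 normalized counts over the 4 libraries beside 612 for *Mrpl52*. In CPM divided by the kilobases of coding sequence, *Mrpl52* was highest with 1394 ± 17.0 in scrambled (SD, n = 2) and 975 ± 161 in the knockdown cells. *Mrpl12* followed with 951 ± 73.4 in scrambled and *Mrpl20*, a counterpart of bacterial L20, with 918 ± 142, and these 2 did not differ beyond their spread. *Mrpl51* and *Mrpl34* had 680.5 ± 9.2 and 666 ± 8.0 in scrambled. The highest small subunit gene was *Mrps21* with 645 ± 16.5, ahead of *Mrps24*, *Mrps16*, *Mrps14* and *Mrps17*. *Mrpl42* had 637 ± 35.1 in scrambled and 887 ± 37.1 in the knockdown cells. Among the tested members the lowest levels per kilobase in scrambled were 12.5 in *Mrps27* and 8.76 in *Mrpl10*. Neither coding length nor mean count went with the fold change (Spearman correlation −0.04 and −0.13 over 72 members, as descriptions).

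The promoters of the members were searched for 3 motifs of factors known to act on nuclear genes for mitochondria, in the 250 bases before and 50 bases after the annotated start of each gene and on both strands. The motif CCGGAAG, bound by GABP and other ETS factors, was found in 24 of 78 members (30.8%) and in 20 of the 72 tested (27.8%), beside 17.5% of 8159 other tested protein-coding genes with windows of the same length. The palindrome bound by NRF1 was found in 1 member (1.28%, others 2.21%), and AAGATGGCG, bound by YY1, in 4 (5.13%, others 2.60%). A match is a description of the sequence and not a binding site. The median log2 fold change was −0.15 over the 20 tested members with CCGGAAG, of which 1 was called, and 0.06 over the 52 without it, of which 4 were called, where 5.95% of all genes were called. Over all 78 members the median level in scrambled was 142 CPM per kilobase with this motif and 160 without it. Matches are shown with the motif in capitals on the gene's own strand, where CTTCCGG is the same motif on the other strand. They are those of the 5 members with CCGGAAG among the 5 highest levels per kilobase of each subunit and of the 2 highest among the 4 with the YY1 motif. *Mrpl52*, highest per kilobase and a called gene, has a pair of matches at its start, *Mrpl20*, *Mrpl51*, *Mrpl34* and *Mrps21* have 1 each, and *Mrpl42* and *Mrpl36* have the YY1 motif.
*Mrpl52*, chr14:54664308-54664336, forward strand: caagatgtcggCTTCCGGttttcccggca
*Mrpl52*, chr14:54664357-54664385, forward strand: ggccacgcccaCTTCCGGttcccttgctc
*Mrpl20*, chr4:155888005-155888027, forward strand: ctagaggcgccCCGGAAGacagt
*Mrpl51*, chr6:125169062-125169090, forward strand: caggggctaaaCCGGAAGtatttgactgg
*Mrpl34*, chr8:71917522-71917550, forward strand: aactacagctcCCGGAAGgccccgcggca
*Mrps21*, chr3:95778791-95778819, reverse strand: cgtagcttccgCTTCCGGtccgcagagac
*Mrpl42*, chr10:95337769-95337794, reverse strand: agattgaagcAAGATGGCGagcgcgc
*Mrpl36*, chr13:73479087-73479115, forward strand: cgtgaccttaCGCCATCTTtcttcctggc

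For 6 members too few reads were counted for a test. *Mrpl53* had no read in any library, which allows up to 2.44 CPM in the shallowest. *Mrpl24* had 1 read, in knockdown 1. *Mrps34* had 1 read in scrambled 2 and 1 in knockdown 2, and *Mrps18b* had 0 and 2 reads in the scrambled and 1 and 3 in the knockdown cells. All 4 encode known proteins of the particle, while 48 members had a mean of 100 normalized counts or more. *Mrps18c* had 17 and 4 reads in the scrambled and 7 and 4 in the knockdown cells, and *Mrpl48* had 3 and 7 in the scrambled and 6 and 13 in the knockdown cells. The third gene of the S18 family, *Mrps18a*, had 168 and 233 reads in the scrambled and 202 and 230 in the knockdown cells (log2 fold change 0.33, adjusted p = 0.26 in edgeR, and between 0.11 and 0.53 with 1 library left out).

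Most of these genes share exon sequence with a neighbour. Of the bases of its canonical transcript *Mrps18c* shares 82.4% with exons of other genes (*Abraxas1*, *Helq* and a predicted gene), *Mrps34* 77.9% (*Eme2*, *Mapk8ip3* and *Nme3*), *Mrpl24* 70.5% (*Mettl25b*) and *Mrps18b* 67.5% (*Ppp1r10* and a predicted gene), nearly all on the opposite strand. *Mrpl53* shares 20.3%. The counting set aside 16.0 to 16.5% of the reads of a library as ambiguous between genes, and the sources used here do not give its strand setting. Over all members, 10 share more than 50% of their exon bases and had a median of 52.9 normalized counts, beside 162 in the other 68. Sharing did not always go with few reads, since *Mrpl54* shares 93.9% with *Matk* on the opposite strand and had 208 to 280 reads a library, and *Mrps7* shares 70.2% and had 262 to 298. The part of this sharing in the low counts was not tested.

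**Figure D4:**
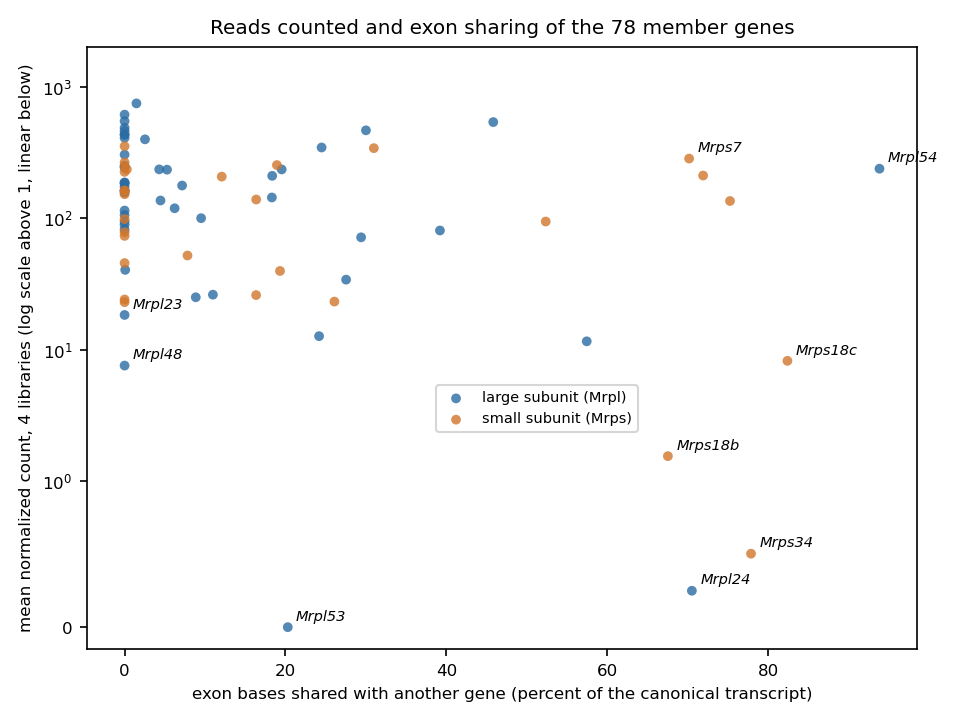
Mean normalized count over the 4 libraries (vertical axis, log scale above 1 and linear below) against the percent of the bases of the canonical transcript that lie in exons of another gene (horizontal axis) for all 78 members. *Mrpl24*, *Mrps18b*, *Mrps34* and *Mrps18c* lie at the lower right, while *Mrps7* and *Mrpl54* share 70.2% and 93.9% and have over 200 counts.

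*Mrpl23*, *Mrpl48* and *Mrps36* have processed pseudogenes, copies of the spliced mRNA elsewhere in the genome, and more reads were counted on the pseudogene than on the gene. *Mrpl23-ps1* had 127 and 166 reads in the scrambled and 108 and 79 in the knockdown cells, while *Mrpl23* had 16 and 27 in the scrambled and 14 and 17 in the knockdown cells. *Mrpl48-ps* had 40 and 38 reads in the scrambled and 19 and 29 in the knockdown cells, each above the count of *Mrpl48* in the same library. *Mrps36-ps1* had 35 and 34 reads in the scrambled and 29 and 30 in the knockdown cells, where *Mrps36* had 23 and 31 in the scrambled and 25 and 18 in the knockdown cells. *Mrpl27-ps* had 11 to 18 reads beside 17 to 35 for *Mrpl27*. The pseudogenes are near copies. The transcript of *Mrpl23* and *Mrpl23-ps1* aligned over 540 bases with no difference, the whole coding sequence of 438 bases included. *Mrpl48-ps* differed at 12 of 636 aligned bases (98.1% identity), *Mrps36-ps1* at 2 of 306 (99.3%) and *Mrpl27-ps* at 5 of 447 (98.9%). The values of these 4 members are therefore uncertain, and 22.7 to 23.8% of the reads of a library were set aside for low mapping quality. A stretch of 30 coding bases is shown for each of 3 pairs, for *Mrpl48* and *Mrps36* the first with the most differences (3 and 1, in capitals) and for *Mrpl23* the first within 1 exon, which has none.
*Mrpl23*, chr7:142088742-142088771, forward strand: gtaccccctttaccaactgggtggccccca
*Mrpl23-ps1*, chr2:74422190-74422219, reverse strand: gtaccccctttaccaactgggtggccccca
*Mrpl48*, chr7:100201859-100201888, reverse strand: CtatgcGatgcctaccaaaaccatGgaagt
*Mrpl48-ps*, chr4:88517650-88517679, reverse strand: TtatgcAatgcctaccaaaaccatAgaagt
*Mrps36*, chr13:100877703-100877732, reverse strand: agccacacgctccattaataaagttccctA
*Mrps36-ps1*, chr17:54173973-54174002, reverse strand: agccacacgctccattaataaagttccctC

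A few proteins of the mitochondrial ribosome have other symbols. *Chchd1*, a small subunit protein whose gene lies on chromosome 14, fell from 462 and 322 normalized counts in scrambled to 170 and 239 in the knockdown cells (log2 fold change −0.94 ± 0.19, adjusted p = 0.0046 in edgeR, 0.0049 with the replicate block). This is a larger fall than in any member, and with the chromosome medians taken off it was −0.58 (adjusted p = 0.10), while DESeq2 gave an adjusted p of 0.17 with the local fit and of 0.018 with the parametric fit. *Ptcd3*, *Aurkaip1* and *Dap3* of the small subunit had log2 fold changes of 0.24, −0.16 and −0.09, none past the threshold (0.11 to 0.36, −0.34 to 0.01 and −0.25 to 0.05 with 1 library left out), and *Gadd45gip1* had at most 1 read. The ribosomal RNAs did not pass either, with 0.11 ± 0.16 for *mt-Rnr1* of the small subunit (adjusted p = 0.73 in edgeR) and −0.13 ± 0.16 for *mt-Rnr2* of the large subunit (adjusted p = 0.69). With 1 library left out they ran from −0.0099 to 0.22 and from −0.23 to −0.034.

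In the edgeR fit with none of the alternative settings, genes that act on the mitochondrial ribosome had no call at an adjusted p under 0.05. DESeq2 called none of them with either fit. That edgeR fit called 5.95% of all genes and gave 21.8% an unadjusted p under 0.05. None of 13 tested translation factors was called (2 at an unadjusted p under 0.05, *Oxa1l*, the insertase that receives the new chains, at −0.46 and *Guf1* at 0.76, which ran from 0.31 to 1.13 with 1 library left out). None of 21 assembly factors was called (3 at an unadjusted p under 0.05, *Fastkd2* at 0.72, *Mterf3* at 0.89 and *Dhx30* at −0.57), and their median was 0.21. *Fastkd2*, needed for the large ribosomal RNA, had an adjusted p of 0.063 in edgeR and of 0.044 with the replicate block. With 1 library left out its fold change ran from 0.42 to 0.99, and that of *Mterf3* from 0.47 to 1.37. *Oxa1l* lies on chromosome 14 and *Dhx30* on chromosome 9. With the chromosome medians taken off, *Oxa1l* went to −0.10 and *Dhx30* to −0.20. *Guf1* went to 0.53, *Fastkd2* to 0.53 and *Mterf3* to 0.67, and none of these was called. None of 14 mitochondrial tRNA synthetases was called and none had an unadjusted p under 0.05. Of 5 tested genes whose proteins act on mitochondrial DNA, 1 had an unadjusted p under 0.05, the polymerase gene *Polrmt* at 0.81 (0.57 with the chromosome medians taken off). Of 6 regulators of mitochondrial biogenesis none did. The median was −0.03 for the synthetases and 0.10 for the translation factors. It was 0.26 for the genes that act on mitochondrial DNA and 0.15 for the regulators, beside −0.0006 over all genes.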

How the data were processed

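The authors called bases with guppy, aligned the direct RNA reads to GRCm39 (minimap2 2.17, per the labels' processing notes) and counted reads per gene with HTSeq 0.9.1. The deposited files hold whole counts per gene without normalization. The annotation release and strand setting of the counting are not given in the sources used here. Of 56748 gene IDs, 56017 were matched to GENCODE vM39, which gave symbols, exons and starts.

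Both groups were fitted in edgeR 4.0.16 under R 4.3.3, using TMM factors, filterByExpr and the quasi-likelihood test on all genes, with Benjamini-Hochberg adjustment over the 8670 genes tested. Normalized counts were obtained by scaling each library by its TMM factor to the mean of the 4 libraries. Batch differences used a pseudocount of 1 on the log2 scale. Chromosome medians needed at least 20 genes. Motifs were read from the GRCm39 sequence, and pseudogenes were aligned locally to the canonical transcript. The alternatives were DESeq2 1.42.0 with both fits, RLE and upper quartile factors, 2 other filters, a robust fit, mitochondrially encoded genes left out, chromosome medians removed, the replicate block and each library left out.

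The labels give a replicate number and no batch. That number was taken as the batch, which treats the libraries of the same number as a pair. The deviations of the libraries numbered 1 correlated at only 0.0026 over 4501 genes. The genes named are the called members, the 6 highest and 6 lowest fold changes per subunit with a mean of at least 50 normalized counts, the 5 highest levels per subunit, members without a test, and other mitochondrial ribosome genes. The members and lists were chosen with earlier results of these data known. Any other member was named with its values known. The edgeR fit was first tested on simulated data. Floors cover counting error only.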

Additional observations from a re-analysis of the deposited data

How the results depend on the processing

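The 5 calls among the members changed with the processing. There were 2 calls with the replicate block (which kept *Mrps17* and *Mrps6*), 2 with the chromosome medians removed (neither of them among the 5), 2 with the DESeq2 local fit, 11 at an adjusted p under 0.1 (background 10.5%), and 0 with the DESeq2 parametric fit, where 9 had an unadjusted p under 0.05. Leaving out 1 library, which leaves a lone library assumed to vary like the other group, gave between 0 and 1 calls, where 2.17 to 4.96% of all genes were called. The other 6 alternatives gave 4 to 7 calls, with *Mrpl21* lost under RLE and upper quartile factors, *Mrpl42* called in 3 and *Mrpl49* in 3. The replicate block changed no other call among the named members. The 2 subunit medians stayed within the spread between libraries in each alternative, from −0.08 to 0.05 for the large and −0.07 to 0.04 for the small subunit with 1 library left out, and were −0.02 and −0.07 with the chromosome medians removed. *Hnrnpl* lost its call in the DESeq2 parametric fit (−0.78, adjusted p = 0.057), and with 1 library left out it ran from −1.03 to −0.48, without a call when scrambled 2 (−0.48, adjusted p = 0.19) or knockdown 1 (−0.62, adjusted p = 0.15) was left out. Among 29 named genes and 406 values, 358 kept direction and side of the threshold and 4 turned sign. With the chromosome medians removed *Mrpl51* became −0.11 and *Mrps14* −0.068. With 1 library left out, *Mrps14* ran from −0.024 to 0.29 and *Mrps21* from −0.21 to 0.41. The cause was not tested. At this depth 6 members had too few reads for a test, although 48 members had a mean of 100 normalized counts or more.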
